A study of Mus musculus with 6 samples.

Results

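The enzymes described here are 9 that act on the route from squalene to cholesterol: Fdft1, Sqle, Lss, Cyp51, Msmo1, Nsdhl, Hsd17b7, Sc5d and Dhcr7. They were taken by gene symbol from the deposited expression table, using rows annotated with exactly 1 symbol. All 9 were found, each with 1 row, among 22180 genes measured. The samples were total RNA of whole kidneys from mice aged 4 weeks, 3 labelled Cre-negative and 3 labelled Cre-positive, with 1 Affymetrix whole-transcript array each. The labels name a conditional knockout line for Mpp5, which encodes the polarity protein Pals1, and a Six2-Cre transgenic line. Six2-Cre acts in the progenitors of nephron epithelia, so cells of vessels, stroma, blood and collecting duct are outside its lineage. All samples came from mice of mixed background without treatment. Whether the Cre-negative mice carried conditional Mpp5 alleles, and how many such alleles the Cre-positive mice carried, is not given by the labels. It is not said that the samples are separate mice, so the p-values speak only to the spread among these arrays, part of which may be technical.

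Cholesterol is built in the endoplasmic reticulum and on adjoining membranes. Squalene synthase, encoded by Fdft1, commits farnesyl diphosphate to sterols. Squalene epoxidase (Sqle) and lanosterol synthase (Lss) then form the first ring-closed sterol, lanosterol. The remaining enzymes strip methyl groups from lanosterol and add, move or reduce double bonds. Most genes of the route are targets of the transcription factor SREBP-2, which is released from its membrane precursor when membrane cholesterol is low. Oxysterols and LXR receptors act on the opposite side and favour export of sterol from the cell. In kidney, as in other tissues, epithelial membranes depend on cholesterol made locally or taken up from lipoproteins.

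Promoter sequence was compared because most genes of the route are targets of SREBP-2. RefSeq promoters (GRCm38.p6) were matched by symbol for 7 of the 9 genes, and none was found for Fdft1 or Sqle. There were 9 annotated starts in all, as Dhcr7 had 3, and the 250 bases before each start were searched on both strands. Shown are Cyp51, Nsdhl and Msmo1, which were lower in Cre-positive kidneys, and Lss, which did not pass the test. The windows are chr5:4104698-4104947 on the minus strand for Cyp51, chrX:72918271-72918520 on the plus strand for Nsdhl, chr8:64733579-64733828 on the minus strand for Msmo1 and chr10:76531355-76531604 on the plus strand for Lss. Each is written 5′ to 3′ in the direction of transcription and ends at the base before the annotated start of its promoter entry. For Lss the RefSeq gene record starts earlier, at 76531565, so the end of that window lies inside the gene. Capitals mark the NF-Y box CCAAT and the GC box GGGCGG, each read on either strand, and, in Cyp51, the motif TCACCTCAG, which is known as part of the sterol regulatory element of that gene.
Cyp51: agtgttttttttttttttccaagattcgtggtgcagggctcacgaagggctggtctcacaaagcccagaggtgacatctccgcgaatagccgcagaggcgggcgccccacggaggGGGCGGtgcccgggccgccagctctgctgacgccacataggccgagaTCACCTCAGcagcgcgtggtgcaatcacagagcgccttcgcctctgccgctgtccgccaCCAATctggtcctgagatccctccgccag
Nsdhl: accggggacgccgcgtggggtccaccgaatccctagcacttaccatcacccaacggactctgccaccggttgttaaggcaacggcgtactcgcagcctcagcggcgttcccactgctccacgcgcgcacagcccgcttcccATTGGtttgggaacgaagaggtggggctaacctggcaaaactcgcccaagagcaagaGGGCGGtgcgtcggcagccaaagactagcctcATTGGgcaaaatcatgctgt
Msmo1: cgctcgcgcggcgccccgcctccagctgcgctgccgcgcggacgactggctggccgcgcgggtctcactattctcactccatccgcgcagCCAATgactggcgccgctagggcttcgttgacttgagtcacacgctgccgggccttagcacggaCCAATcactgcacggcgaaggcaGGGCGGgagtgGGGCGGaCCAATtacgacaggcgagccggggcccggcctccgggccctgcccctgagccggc
Lss: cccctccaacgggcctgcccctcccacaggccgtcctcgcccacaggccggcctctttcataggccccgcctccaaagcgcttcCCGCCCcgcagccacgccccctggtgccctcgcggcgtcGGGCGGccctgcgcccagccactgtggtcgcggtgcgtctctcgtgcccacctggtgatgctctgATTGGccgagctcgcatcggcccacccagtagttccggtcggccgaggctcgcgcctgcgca

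CCAAT was present before at least 1 start of all 7 genes and in 7 of the 9 windows, against 33.8% of 32851 promoter windows of the same length. GGGCGG was present in 8 of the 9 windows, against 32.7% of all. CACGTG, an E-box, was present in 3 of the 9 windows, those of Hsd17b7, Sc5d and 1 start of Dhcr7, against 6.02% of all. TCACNCCAC, a form of the classical sterol regulatory element, was in 0 of the 9 windows, against 1.05% of all. TCACCTCAG was searched after the Cyp51 sequence had been seen. It lay 80 to 88 bases before the Cyp51 start, in 1 of the 9 windows, and in 0.295% of all windows. The CCAAT box of Cyp51 lay 25 to 29 bases before its start, and Msmo1 held 3 such boxes. The windows of Lss and Hsd17b7, whose genes did not pass, held CCAAT and GGGCGG as well. These matches describe letters in the windows and not factor binding.

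Values below are log2 RMA values, a background-corrected and quantile-normalized scale that compresses differences of dim probe sets. Differences are Cre-positive minus Cre-negative with the SE of the limma fit (n = 3 per group), and p-values are limma's, adjusted by Benjamini-Hochberg over all 22180 genes with a threshold of 0.05. Mpp5 itself was lower in Cre-positive arrays (-0.61 ± 0.09, adjusted p = 0.00232). By Xist and the Y-linked genes, 2 of the 3 Cre-negative arrays and 0 of the 3 Cre-positive arrays came from females, although no label states a sex. Differences or adjusted p-values with a sex term added to the fit are given beside the calls of single pathway genes that it alters. Cre-negative replicate 2 carried adrenal cortex transcripts, with a summed level of 8 markers at 12.78 against 7.52 to 7.66 in the other arrays. Adrenal cortex is a tissue rich in sterol synthesis. Skeletal muscle transcripts were present in Cre-positive replicate 2, where 6 markers summed to 10.15 against 7.53 to 7.82.

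Of the 9 enzymes, 6 were lower in Cre-positive kidneys, 0 were higher and 3 did not pass the test. Over all genes tested 21.8% were called, 11.1% lower and 10.7% higher. The 6 were Cyp51, Nsdhl, Dhcr7, Msmo1, Sc5d and Fdft1, and the largest fall was that of Cyp51, to 0.132 of the Cre-negative level. The median difference over the 9 enzymes was -0.58, against -0.011 over all genes. All 9 point estimates were below 0, and for 7 enzymes the groups did not overlap, as was the case for 38.5% of all genes in either direction. With 3 against 3 arrays the exact two-sided permutation test cannot go below p = 0.10, and it gave that value for each of these 7 (0.129 after Benjamini-Hochberg adjustment over the 9). With the sex term 4 of the 9 enzymes were lower, against 5.05% of all genes, and the median was -0.68. These 4 were Cyp51, Nsdhl, Sc5d and Dhcr7. Without Cre-negative replicate 2, the array with adrenal transcripts, 5 were lower, against 7.64% of all genes, and the median was -0.63. Without both arrays that carried adrenal or muscle transcripts 3 of the 9 were lower, namely Cyp51, Nsdhl and Dhcr7, against 4.39% of all genes. In whole kidney RNA, fewer cells of a type and less RNA per cell cannot be told apart.

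**Figure D1:**
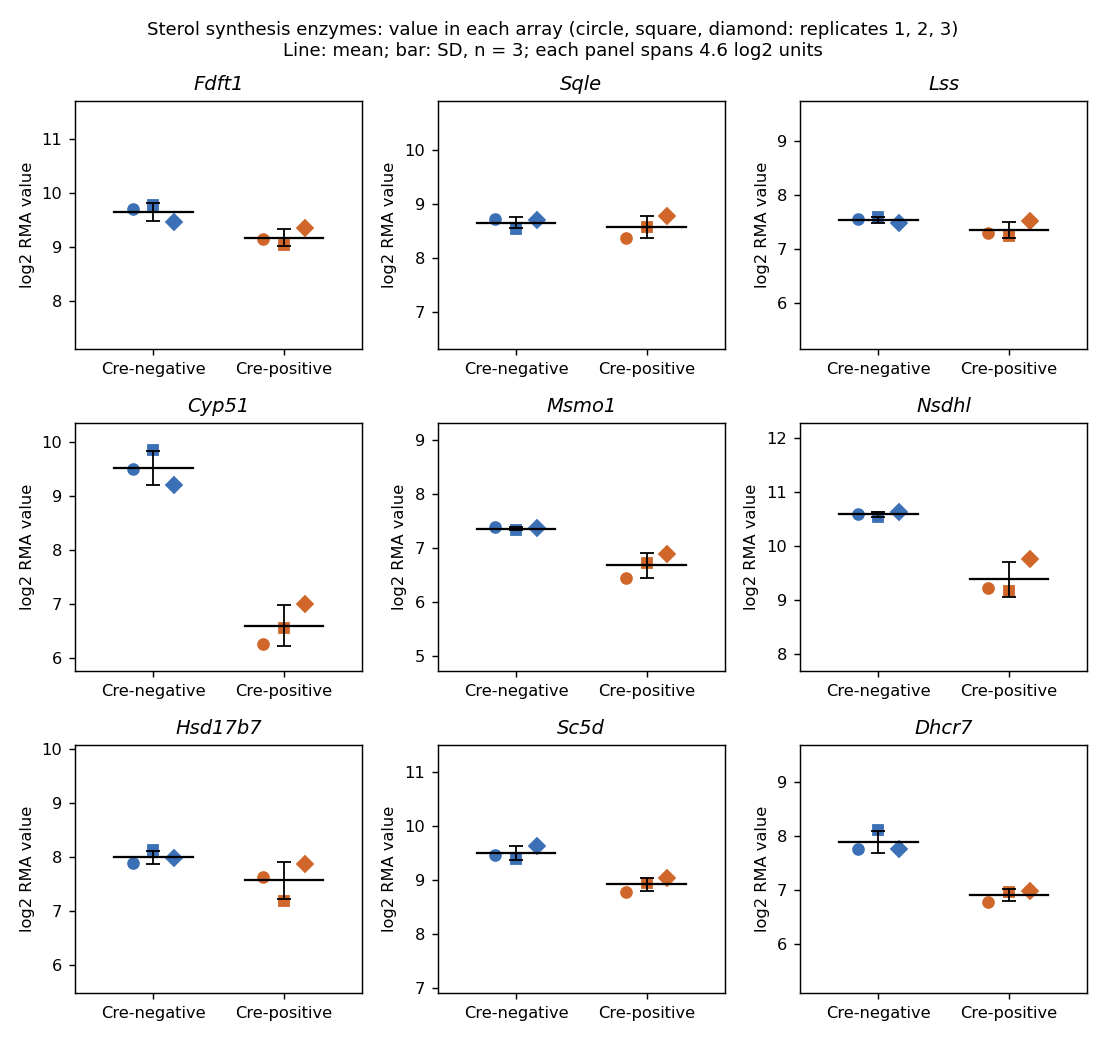
Log2 RMA value of each of the 9 enzymes in each array, with 3 Cre-negative (blue) and 3 Cre-positive (orange) arrays per panel. Markers are replicates, lines are group means and bars are SD, and every panel spans the same height. Cyp51 shows the widest gap, with all Cre-negative arrays at 9.21 or above and all Cre-positive arrays at 7.0 or below, while the groups overlap for Sqle and Lss.

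Of the 3 enzymes at the head of the route, Fdft1 was lower in Cre-positive kidneys and Sqle and Lss did not pass the test. Fdft1, squalene synthase, read 9.70, 9.78 and 9.46 across Cre-negative replicates 1, 2 and 3, and 9.15, 9.04 and 9.36 across Cre-positive replicates 1, 2 and 3. The groups did not overlap, but the lowest Cre-negative and highest Cre-positive values were 0.10 apart. Fdft1 fell by 0.46 (SE 0.12, adjusted p = 0.0298), to 0.725 of the Cre-negative level (95% interval 0.596 to 0.880). This call was lost without Cre-negative replicate 1 (adjusted p = 0.101), Cre-negative replicate 2 (0.103), Cre-positive replicate 1 (0.0718) or Cre-positive replicate 2 (0.0984) in limma's fit, and with the sex term the difference was -0.28 (adjusted p = 0.348).

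Sqle, squalene epoxidase and a rate-limiting step of the route, was at 8.72, 8.53 and 8.69 in Cre-negative and at 8.36, 8.56 and 8.77 in Cre-positive replicates 1, 2 and 3. The groups overlapped, as the highest value of all was that of Cre-positive replicate 3. Its difference was -0.08 ± 0.12 (limma adjusted p = 0.700), with a 95% interval from -0.36 to 0.20. Lss, which closes the sterol rings, was at 7.56, 7.59 and 7.49 in Cre-negative and at 7.30, 7.24 and 7.52 in Cre-positive replicates. Only Cre-positive replicate 3 reached the Cre-negative values. The Lss difference was -0.19 ± 0.10 (limma adjusted p = 0.230), with a 95% interval from -0.42 to 0.04. An exact permutation test, two-sided, had p = 0.70 for Sqle and p = 0.20 for Lss.

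Cyp51, the sterol 14-alpha-demethylase that removes the first methyl group from lanosterol, showed the largest difference of the 9 (probe set 17445308, Entrez gene 13121, chromosome 5). Cre-negative replicates 1, 2 and 3 read 9.51, 9.85 and 9.21. Cre-positive replicates 1, 2 and 3 read 6.25, 6.56 and 7.0. The groups were 2.21 apart, against ranges of 0.64 and 0.74 within them. The difference was -2.92 ± 0.22 (limma adjusted p = 0.000152), a 7.56-fold fall to 0.132 of the Cre-negative level (95% interval 0.0934 to 0.187). Of all 22180 genes, 0.113% had a larger fall. The call held in all 15 alternatives, with differences from -3.12 to -2.60 and limma adjusted p from 7.01e-05 to 0.0064, the smallest difference being that with the sex term. The male Cre-negative array, replicate 3, was the lowest of its group. Cre-negative replicate 2, the array with adrenal transcripts, was the highest, and without it the difference was -2.75 (limma adjusted p = 0.000814).

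Within each array, Cyp51 minus the mean of the other 8 enzymes was 0.87, 1.17 and 0.58 in Cre-negative and -1.70, -1.42 and -1.27 in Cre-positive replicates 1, 2 and 3. The difference between groups in this value was -2.34 (exact two-sided permutation p = 0.10, the smallest possible). Of the 9 such comparisons 6 had this exact permutation p, which is 0.15 after Benjamini-Hochberg adjustment over the 9. For each enzyme other than Cyp51, the mean it is set against contains Cyp51.

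The enzymes that remove both methyl groups at carbon 4 followed. Msmo1, the methylsterol monooxygenase that oxidises them, was at 7.38, 7.33 and 7.36 in Cre-negative and at 6.43, 6.71 and 6.89 in Cre-positive replicates. The Cre-negative arrays lay within 0.05 of each other, and all Cre-positive arrays lay below them. Msmo1 fell by 0.68 (SE 0.12, limma adjusted p = 0.00645), and with the sex term its difference was -0.68 with adjusted p = 0.0716. Nsdhl, the X-linked dehydrogenase that decarboxylates the oxidised sterol, was at 10.60, 10.54 and 10.63 in Cre-negative and at 9.23, 9.17 and 9.76 in Cre-positive replicates. The male and female Cre-negative arrays lay within 0.08 of each other. Nsdhl fell by 1.20 (SE 0.16, limma adjusted p = 0.00153), to 0.434 of the Cre-negative level (95% interval 0.338 to 0.557), and by 1.24 with the sex term (adjusted p = 0.0227). Hsd17b7, the ketoreductase that completes this cycle, was at 7.89, 8.12 and 7.97 in Cre-negative and at 7.62, 7.18 and 7.87 in Cre-positive replicates. The groups were 0.02 apart and the Cre-positive arrays spanned 0.68. Its difference of -0.43 ± 0.17 did not pass (limma adjusted p = 0.113), and without Cre-positive replicate 3 it was -0.59 with adjusted p = 0.0343. Without Cre-positive replicate 2, the array with muscle transcripts and the lowest Hsd17b7 value, it was -0.25 (limma adjusted p = 0.246), and without both arrays with transcripts of other tissue it was -0.18 (0.505).

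Both enzymes measured at the end of the route were lower. Sc5d, the desaturase that forms 7-dehydrocholesterol, was at 9.47, 9.40 and 9.64 in Cre-negative and at 8.78, 8.95 and 9.03 in Cre-positive replicates. The groups were 0.37 apart. Sc5d fell by 0.58 (SE 0.10, limma adjusted p = 0.00639) and by 0.72 with the sex term (adjusted p = 0.0264). Dhcr7, which reduces 7-dehydrocholesterol to cholesterol and is the enzyme deficient in Smith-Lemli-Opitz syndrome, was at 7.77, 8.13 and 7.77 in Cre-negative and at 6.78, 6.97 and 6.98 in Cre-positive replicates. Cre-negative replicate 2, the array with adrenal transcripts, was the highest of its group, and without it the difference was -0.86 (adjusted p = 0.00391). Over all arrays Dhcr7 fell by 0.98 (SE 0.12, limma adjusted p = 0.00130), to 0.507 of the Cre-negative level (95% interval 0.417 to 0.617). Cyp51, Nsdhl and Dhcr7 passed the test in all 15 alternatives, and Msmo1, Sc5d and Fdft1 in 13, 14 and 8 of 15.

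**Figure D2:**
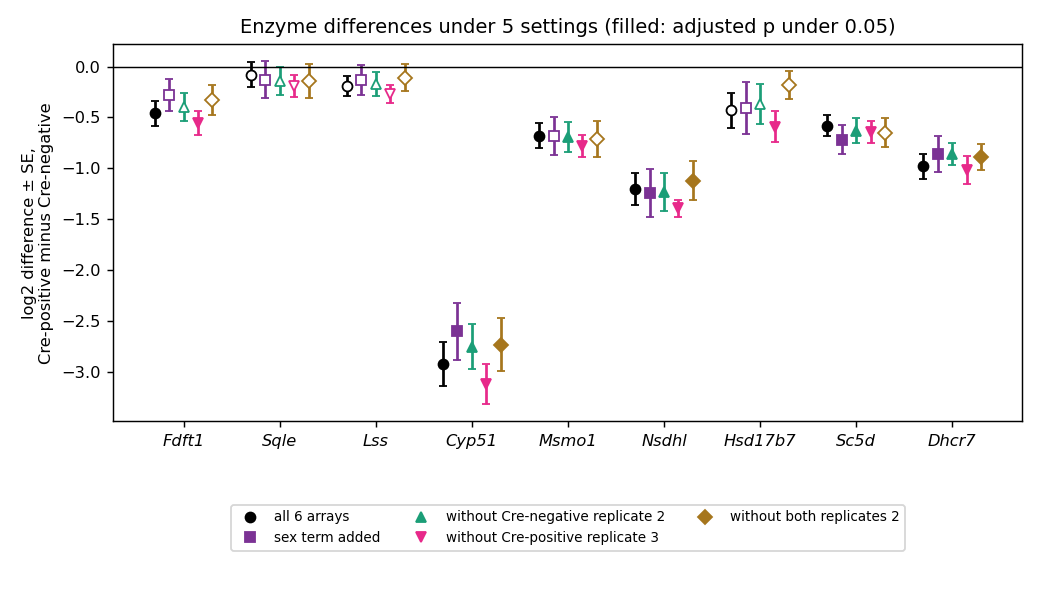
Log2 difference, Cre-positive minus Cre-negative, with SE for each of the 9 enzymes under 5 settings. Filled symbols have limma adjusted p under 0.05. Cyp51, Nsdhl and Dhcr7 are filled under each setting, and Cyp51 lies between -3.12 and -2.60 throughout, while Sqle and Lss are open throughout.

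The enzymes also varied together among the Cre-positive arrays. Cre-positive replicate 3 had the highest value of its group for all 9 enzymes. Over all genes 34.9% were highest in that array, and 48.8% of the 2472 genes called lower were. The lowest value was in Cre-positive replicate 1 for 5 enzymes and in replicate 2 for 4. Cre-negative arrays showed no such order, with 2, 5 and 2 enzymes highest in replicates 1, 2 and 3. Replicate 2, the array with adrenal transcripts, was highest for 5 and lowest for 4, and 34.4% of all genes were highest there. Without Cre-positive replicate 3 the median difference of the 9 enzymes was -0.64, and 7 of the 9 were called lower and 0 higher. Of all 22180 genes 4885 were then called in either direction, against 4844 with all arrays. The share of all genes called lower was not counted under this setting. Some marker lists were highest in that array of the Cre-positive group too, and others were not. Its summed level of 4 endothelial markers was 12.13 against 11.60 and 11.65 in Cre-positive replicates 1 and 2, and that of 5 macrophage markers was 12.07 against 11.01 and 11.60. That of 4 fibroblast markers was 13.29 against 12.37 and 12.75, and that of 3 podocyte markers was 9.97 against 9.53 and 9.62. Summed levels of thick ascending limb, distal convoluted tubule and collecting duct markers were lowest of the group there, at 13.16, 11.17 and 11.53. Proximal tubule markers lay in between, at 14.51 against 14.56 and 14.45 in Cre-positive replicates 1 and 2. The part of any of these cells in the enzyme values was not tested.

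**Figure D3:**
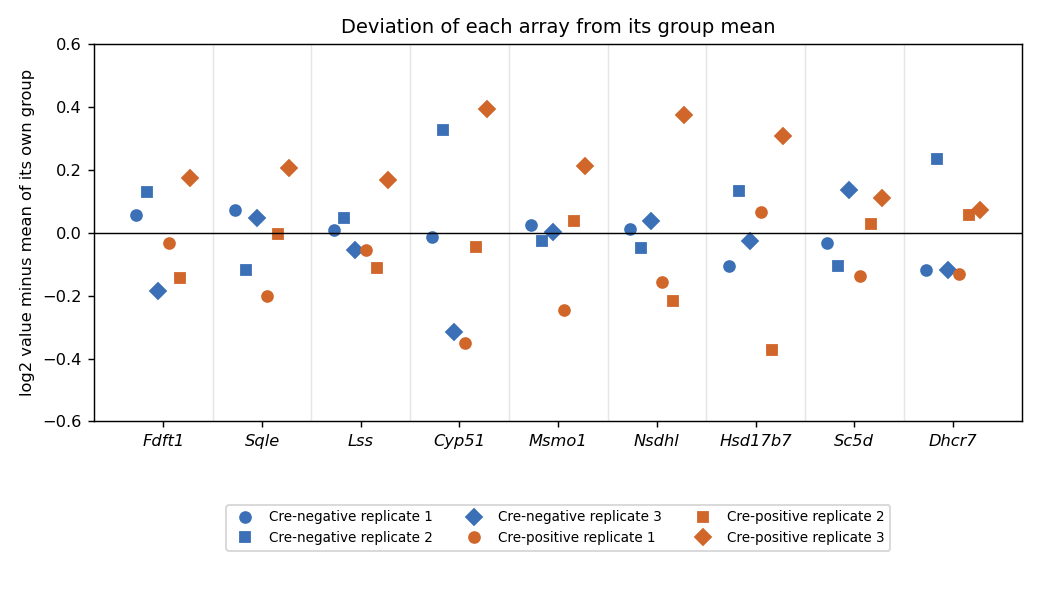
Each array's log2 value minus the mean of its own group for the 9 enzymes, with Cre-negative arrays in blue and Cre-positive arrays in orange. Orange diamonds, Cre-positive replicate 3, lie above the other Cre-positive arrays for all 9 enzymes, while no Cre-negative array leads for more than 5.

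Markers of several kidney cell types differed in the same comparison. All 10 proximal tubule markers were measured, and 9 were lower and 0 higher, with 9 lower with the sex term. Their summed level was 15.58 to 15.64 in Cre-negative and 14.45 to 14.56 in Cre-positive arrays. Of 4 endothelial markers 3 were lower, with summed levels of 12.39 to 12.47 and 11.60 to 12.13. Of 5 macrophage markers 4 were higher, with 10.04 to 10.20 and 11.01 to 12.07, and of 4 fibroblast markers 3 were higher, with 11.79 to 11.91 and 12.37 to 13.29. With the sex term 1 endothelial marker was lower, and 3 macrophage markers and 1 fibroblast marker were higher. All 3 markers of the distal convoluted tubule were lower, with summed levels of 12.05 to 12.28 and 11.17 to 11.54. Of 4 thick ascending limb markers 1 was lower and 1 higher, as were 1 and 1 of 5 collecting duct markers, and with the sex term 0 of these 12 markers passed in limma's fit and 5 had an unadjusted p under 0.05. Of 3 measured podocyte markers 2 were lower, and 2 with the sex term. The part of cell makeup in the enzyme differences was not tested.

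Other genes of sterol synthesis were read from lists chosen with earlier results of these data known. The 3 measured late enzymes that were not among the 9 were all lower. These were Ebp, the X-linked isomerase that moves a ring double bond (-0.89 ± 0.11, limma adjusted p = 0.00106), Tm7sf2, a sterol 14-reductase (-0.49 ± 0.08, adjusted p = 0.00445), and Lbr, the lamin B receptor, which has the same reductase activity (-0.50 ± 0.15, adjusted p = 0.0470). Ebp passed in all 15 alternatives. With the sex term Tm7sf2 (-0.52, limma adjusted p = 0.0505) and Lbr (-0.74, adjusted p = 0.0511) missed the threshold, as did Lbr without any 1 array other than Cre-negative replicate 2 (0.0733 to 0.136). Of 6 measured genes of the mevalonate steps before squalene 4 were lower and 0 higher, with a median of -0.46, and 2 were lower with the sex term. Hmgcs1, an early enzyme of the mevalonate steps, was at 10.76, 10.70 and 11.14 in Cre-negative and at 9.90, 9.93 and 9.71 in Cre-positive replicates, a fall of 1.02 (SE 0.13, adjusted p = 0.00165). Mvd, the decarboxylase that yields isopentenyl diphosphate, was at 8.12, 8.09 and 8.35 and at 7.11, 7.07 and 7.15, a fall of 1.08 (SE 0.10, adjusted p = 0.000339). Cre-positive replicate 3 had the lowest Hmgcs1 and the highest Mvd value of its group. Mevalonate kinase (Mvk, -0.45 ± 0.11) and farnesyl diphosphate synthase (Fdps, -0.48 ± 0.14) fell less, with limma adjusted p = 0.0218 and 0.0411. Both calls were lost without any 1 array other than Cre-positive replicate 3 (0.0565 to 0.0750 for Mvk and 0.0806 to 0.133 for Fdps). With the sex term Mvk was at -0.46 (limma adjusted p = 0.150) and Fdps at -0.41 (0.285).

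**Figure D4:**
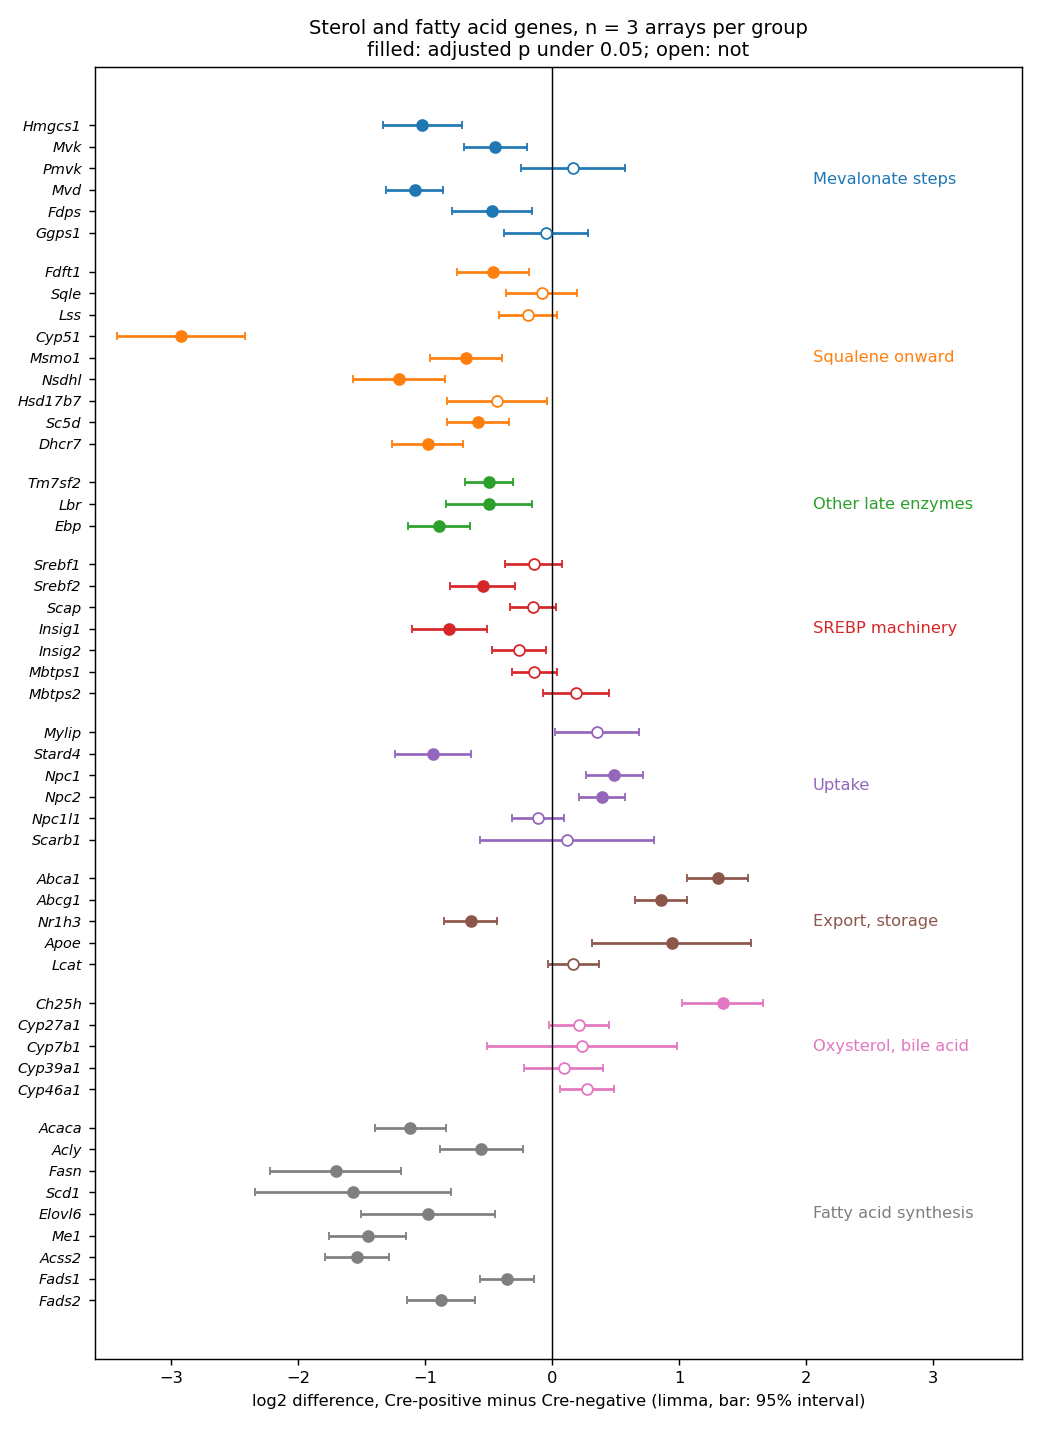
Log2 differences, Cre-positive minus Cre-negative, with 95% intervals from limma for genes of sterol and fatty acid metabolism, grouped by role. Filled symbols have adjusted p under 0.05. Synthesis genes lie mostly left of 0, with Cyp51 at -2.92 the farthest, while Abca1 (1.30), Abcg1 (0.86) and Ch25h (1.34) lie to the right.

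Among 7 genes of the SREBP machinery 2 were lower and 0 higher, with a median of -0.15. Srebf2, which encodes SREBP-2, was at 9.51, 9.39 and 9.35 in Cre-negative and at 8.73, 8.82 and 9.07 in Cre-positive replicates. It fell by 0.55 (SE 0.11, limma adjusted p = 0.0101), and with the sex term its difference was -0.48 with adjusted p = 0.130. Insig1, which holds the SREBP precursor in the endoplasmic reticulum and is itself an SREBP target, fell by 0.81 (SE 0.13, adjusted p = 0.00362). With the sex term the Insig1 difference was -0.79 (limma adjusted p = 0.0517). Srebf1 (-0.15 ± 0.10) and the SREBP escort gene Scap (-0.15 ± 0.08) did not pass, with limma adjusted p = 0.346 and 0.218. All 9 measured fatty acid genes that SREBP also controls were lower, with a median of -1.12. They included Fasn, fatty acid synthase (-1.70 ± 0.22), Acss2, which makes acetyl-CoA from acetate (-1.54 ± 0.11), Me1, malic enzyme (-1.45 ± 0.13), and Acaca, acetyl-CoA carboxylase (-1.12 ± 0.12), with limma adjusted p = 0.00158, 0.000129, 0.000344 and 0.000739. These 4 and the desaturase Fads2 passed in all 15 alternatives. The other 4, Scd1, Acly, Elovl6 and Fads1, did not pass with the sex term (limma adjusted p = 0.127, 0.337, 0.244 and 0.283). With it the differences of Acly, Elovl6 and Fads1 were -0.27, -0.50 and -0.27, against -0.56, -0.98 and -0.36 without it. Scd1 was at -1.57 without it and ran from -1.87 to -1.13 over the 15 alternatives.

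Several genes that export or modify sterol were higher. Of 5 measured export and storage genes 3 were higher and 1 lower. Abca1, which exports cholesterol from cells, was at 9.27, 9.30 and 9.0 in Cre-negative and at 10.54, 10.48 and 10.45 in Cre-positive replicates. It rose 2.47-fold (1.30 ± 0.10, limma adjusted p = 0.000202). Abcg1, a partner in sterol efflux, was at 7.44, 7.48 and 7.43 and at 8.34, 8.18 and 8.39, a rise of 0.86 (SE 0.09, adjusted p = 0.000624). Apoe rose by 0.94 (SE 0.27, limma adjusted p = 0.0422), a call kept in 5 of 15 alternatives. It was lost, among others, without any 1 array other than Cre-positive replicate 2 (0.0516 to 0.107) and with median centring (0.0561). Nr1h3, which encodes LXR-alpha, the oxysterol receptor that activates Abca1, fell by 0.64 (SE 0.09, adjusted p = 0.00218). Of 5 oxysterol and bile acid enzymes 1 was higher and 0 lower. It was Ch25h, cholesterol 25-hydroxylase, at 5.43, 5.63 and 5.41 in Cre-negative and at 6.71, 6.67 and 7.12 in Cre-positive replicates (1.34 ± 0.14, limma adjusted p = 0.000585). Its Cre-negative values lay near the array medians of 5.55 to 5.64, so this was a dim probe set in that group. With the mean of all rows of the gene in place of its highest row the Ch25h difference was 0.82 (limma adjusted p = 0.0028). Abca1, Abcg1 and Ch25h are also expressed by macrophages, whose markers were higher in the same arrays, and the part of those cells was not tested.

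Of 6 measured uptake and transport genes 1 was lower and 2 higher. Stard4, a carrier of cholesterol inside the cell and an SREBP-2 target, fell by 0.94 (SE 0.13, limma adjusted p = 0.00192). The lysosomal cholesterol exporters Npc1 (0.49 ± 0.10) and Npc2 (0.39 ± 0.08) rose, with limma adjusted p = 0.00948 and 0.0104. With the sex term they were at 0.47 and 0.36, and neither passed (limma adjusted p = 0.105 and 0.127). With the mean of all its rows Npc1 was at 0.29 (limma adjusted p = 0.0409). Scarb1, the HDL receptor, was at 7.93, 9.18 and 8.04 in Cre-negative and at 8.48 to 8.52 in Cre-positive replicates. Its highest value was in Cre-negative replicate 2, the array with adrenal transcripts. The difference of 0.12 ± 0.30 did not pass (limma adjusted p = 0.835), and without that array it was 0.52 with adjusted p = 0.0162. Over the 41 measured genes outside the 9, 26 were called and 13 of these passed in every alternative that tested them. Of the 9 enzymes, 6 were called and 3 passed in every alternative. Over all genes tested 21.8% were called and 6.92% passed in every alternative that tested them.

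Genes outside these lists that followed the enzymes most closely were ranked by Pearson correlation with the mean of the 9 standardised enzyme profiles over the 6 arrays. The 8 closest were Crbn, Nqo2, Bsg, Sdhaf2, Lyrm2, Pex19, Cdc14a and Polr2c, with r of 0.996 to 0.998. All 8 were lower in Cre-positive kidneys, by 0.33 (Bsg) to 0.81 (Nqo2), and with 6 arrays in 2 groups the group difference carries most of such a correlation. The enzymes themselves ran from 0.568 for Sqle to 0.989 for Nsdhl. After group means were removed, the 8 closest were Zfp952, Nqo2, Dcdc2a, Rhoa, Ctns, Fau, Ids and Cdkn2aipnl, with r of 0.997 to 0.999. Nqo2 was in both sets. In this second set Nqo2 was lower in Cre-positive kidneys, Dcdc2a was higher (1.49 ± 0.16, limma adjusted p = 0.00075) and the rest did not pass. The enzymes themselves then ran from 0.458 for Sc5d to 0.928 for Lss. The arrays share their normalization, and so few points give high values for many of 22180 genes.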

How the data were processed

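Kidney RNA of 3 Cre-negative and 3 Cre-positive samples was measured on 1 array each. The authors deposited log2 values after RMA, per the submitters' processing notes, which name RMA and Partek without versions. The log2 scale was inferred from what RMA puts out and from the range of 1.89 to 13.6. Array medians were 5.55 to 5.64. No genome build is given in the sources used here. Scanner files and scan batches were not used here, and the number of arrays limits precision.

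Of 41345 rows, 23521 had exactly 1 gene symbol in GEO's platform annotation. The row with the highest mean stood for each of 22180 genes, and no low values were filtered. The comparison used limma 3.58.1 (R 4.3.3, lmFit and eBayes, two-sided) and was checked on simulated data. Tables and figures used Python 3.11.15, pandas 2.3.3 and matplotlib 3.10.9. Summed marker levels are log2 of summed linear values. Genes named are the 9 enzymes, the listed genes of sterol and fatty acid metabolism, cell type markers and the 8 most correlated genes of each ranking, predicted, Rik, small RNA and olfactory loci aside. The enzymes and lists were chosen with earlier results of these data known. The 15 alternatives are other normalizations, filters, variance models and row choices, a sex term read from Xist, the replicate number as a block, and left-out arrays.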

Additional observations from a re-analysis of the deposited data

How the results depend on the processing

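With 3 arrays per group and 2 females only among the Cre-negative arrays, sex and Cre were separated by 1 male Cre-negative array alone. The number of genes called over all genes, 4844, was 2030 with the sex term and 1853 without both arrays with adrenal or muscle transcripts, and 3141 to 4885 when 1 array was left out, lowest without Cre-negative replicate 1. The enzymes called lower, 6 of 9, were 3 without both of those arrays, 4 with the sex term, and 5 to 7 when 1 array was left out, and 0 were called higher under any alternative run. The median of the 9 ran from -0.68 to -0.51. Of 135 values of the 9 enzymes under alternatives, 122 kept direction and side of the threshold, 10 lost the call, 2 gained it and 1 changed sign. That 1 was Sqle, which ran from -0.19 to 0.02 with 1 array left out. Msmo1 and Sc5d missed the threshold without both arrays (limma adjusted p = 0.0693 and 0.0521), and Hsd17b7 passed it with array weights (0.0347). Of 611 values of other pathway genes 10 changed sign, all of genes that did not pass with all arrays. With the sex term Pmvk was at -0.03 and Cyp7b1 at -0.62. Leaving out 1 array gave -0.02 to 0.32 for Pmvk, -0.20 to 0.06 for Ggps1, -0.11 to 0.52 for Scarb1, -0.06 to 0.66 for Cyp7b1 and -0.04 to 0.20 for Cyp39a1, and Ggps1 was at 0.03 without both arrays with transcripts of other tissue. The cause was not tested. Same-numbered arrays did not deviate together (r = 0.03, -0.042 and -0.015 over genes for numbers 1, 2 and 3), so the numbers were not taken to pair samples. With the replicate block 3977 of 22180 genes were called in either direction. Of the 9 enzymes 5 were then called lower and 0 higher, and the median of the 9 stayed at -0.58.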

Other observations

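Of 3 measured fat cell markers 1 was higher in Cre-positive arrays and 2 did not pass the test. Cidec, which promotes fusion of lipid droplets, was at 7.98, 7.99 and 8.15 in Cre-negative and at 10.01, 9.74 and 9.47 in Cre-positive replicates 1, 2 and 3, a rise of 1.70 (SE 0.14, limma adjusted p = 0.000228). Plin1, a coat protein of fat cell droplets, did not pass (-0.63 ± 0.32, adjusted p = 0.224). Its lowest value, 6.17, was in Cre-positive replicate 1, against 7.39 to 7.77 in the other 5 arrays. Adipoq, the fat cell hormone adiponectin, was at 5.40 to 5.68 in all 6 arrays (0.01 ± 0.11, limma adjusted p = 0.979).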
